A study of Sus scrofa with 6 samples.

Results

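The data described here are the 2 arms of miR-126, the miRNA best known from vascular endothelium, in small RNA libraries of piglet jejunum. Its members, miR-126-5p and miR-126-3p, were 2 of 533 sequences in the count tables and 2 of 239 that took the name of a known miRNA. They were found by their name alone, from counts that equalled a row of the study's table of known miRNAs.

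Libraries W1, W4 and W7 came from piglets weaned at 25 d of age and sampled 1, 4 and 7 d later, when 26 d (W1), 29 d (W4) and 32 d (W7) old. Libraries S1, S4 and S7 are from suckling piglets of those same ages. All were Duroc x Yorkshire x Landrace barrows (castrated males). RNA of 4 piglets went into every library as 1 pool, for the weaning libraries with 1 piglet per litter, and was made from whole cross-sections of jejunum. A condition on a given day thus had 1 library, and the 3 libraries of a group differ in day, so that the spread within a group holds age or time since weaning as well as the pool.

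miR-126 is made from a hairpin in an intron of EGFL7, a gene of vascular endothelium, and both arms of the hairpin can be loaded into the silencing complex. In endothelial cells of mouse and zebrafish the 3p arm represses SPRED1 and PIK3R2, which restrain signalling by vascular endothelial growth factor, and in human endothelial cells it represses the adhesion molecule VCAM1. The 5p arm represses DLK1 in mouse endothelium, which favours renewal of these cells. Platelets and blood progenitors carry miR-126 as well, so it is not a marker of endothelium alone. In the jejunum, endothelium lines the capillaries and lymph vessels of villi and the vessels below them.

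The sequences of the arms are shown because they set which targets each arm can reach. The seed (bases 2 to 8 from the 5′ end) is in capitals, as the count tables give the sequences.

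miR-126-5p: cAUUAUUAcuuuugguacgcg

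miR-126-3p: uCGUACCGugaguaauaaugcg

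miR-126-5p is 21 nt long and has 38.1% G and C, and miR-126-3p is 22 nt long and has 45.5%. The median of the 239 known sequences was 47.6%, and 18.0% of them were poorer in G and C than the 5p arm. Of the other 531 sequences, 0 shared the seed of either arm, and 0 shared a stretch of 12 nt with either. The arms are complementary to each other, which is shown next with the paired bases of the predicted duplex in capitals.

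miR-126-5p, paired bases: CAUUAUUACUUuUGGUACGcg

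miR-126-3p, paired bases: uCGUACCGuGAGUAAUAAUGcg

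RNAduplex gave 18 base pairs, of which 2 were wobble pairs of G and U, with an energy of -22.3 kcal/mol. All 7 bases of both seeds were paired, and the last 2 bases of both 3′ ends were unpaired. In RefSeq (Sscrofa11.1) the MIR126 precursor of 73 nt lies within the interval of EGFL7. That build is not the one used by the authors, and the sequences shown here come from the count tables.

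The total count was 4441416 to 4649143 in the weaning libraries and 4492667 to 5373146 in the suckling libraries. In W1, S1, S4 and S7 it exceeded the clean reads that the study reported, and in W4 and W7 it did not. The total is thus not a number of distinct reads, and a share of it is a share of counts. The 3 most abundant miRNAs (miR-192, miR-143-3p and miR-215) took 53.5% to 65.8% of counts in weaning libraries and 67.5% to 72.8% in suckling libraries. miR-192 and miR-215 took the smaller shares in weaning libraries, while miR-143-3p took 19.97% to 32.8% in weaning libraries and 15.7% to 20.3% in suckling libraries. The rest of the counts is divided among all other miRNAs, which bears on each level given in CPM (counts per 1000000 of the library). For this reason levels are also given with TMM scaling, which sets libraries by the bulk of their miRNAs. The label endothelial could not be checked in these data, since the arms themselves are the only endothelial markers among the miRNAs listed.

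Both arms were well covered in every library. miR-126-5p held 142695 reads over the 6 libraries and was 22nd of 533 sequences in abundance, between miR-22-3p with 182126 and let-7c with 133677. miR-126-3p held 16936 reads and was in place 50, between miR-99a with 18445 and miR-181b with 16105. Together the arms took 0.555% of all counts. The rank of the 5p arm was 19 to 22 in the weaning libraries and 21 to 25 in the suckling libraries, and that of the 3p arm 51 to 52 in weaning libraries and 50 to 52 in suckling libraries. Counting error was small, with a coefficient of variation of at most 0.749% for the 5p arm and 2.15% for the 3p arm.

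miR-126-5p had 25256 reads in W1, 30172 in W4 and 23302 in W7, against 17841 in S1, 18118 in S4 and 28006 in S7. Scaled to the library total, these were 5432 CPM in W1, 6699 CPM in W4 and 5247 CPM in W7, against 3971 CPM in S1, 3411 CPM in S4 and 5212 CPM in S7. W4 was the highest and S4 the lowest, and the groups did not overlap, although W7 and S7 lay side by side. In such bulk tissue, fewer cells of a type and less RNA per cell cannot be told apart. With TMM scaling the levels were 5247 CPM in W1, 4704 CPM in W4 and 4706 CPM in W7, against 4801 CPM in S1, 4276 CPM in S4 and 5658 CPM in S7. S7 was then the highest, S4 the lowest, and the groups overlapped.

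miR-126-3p had 3120 reads in W1, 3698 in W4 and 2860 in W7, against 2170 in S1, 2331 in S4 and 2757 in S7. Scaled likewise, these were 671 CPM in W1, 821 CPM in W4 and 644 CPM in W7, against 483 CPM in S1, 439 CPM in S4 and 513 CPM in S7. The weaning libraries were again all above the suckling libraries. With TMM scaling the levels were 648 CPM in W1, 577 CPM in W4 and 578 CPM in W7, against 584 CPM in S1, 550.1 CPM in S4 and 557 CPM in S7, and the groups overlapped. Scaled to the library total, all 3 weaning libraries were above all 3 suckling libraries for 44.5% of the 290 sequences tested and below them for 3.1%. With TMM scaling, the same held for 8.28% and 10%. The separation of the groups by library total was thus common to many miRNAs.

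**Figure D1:**
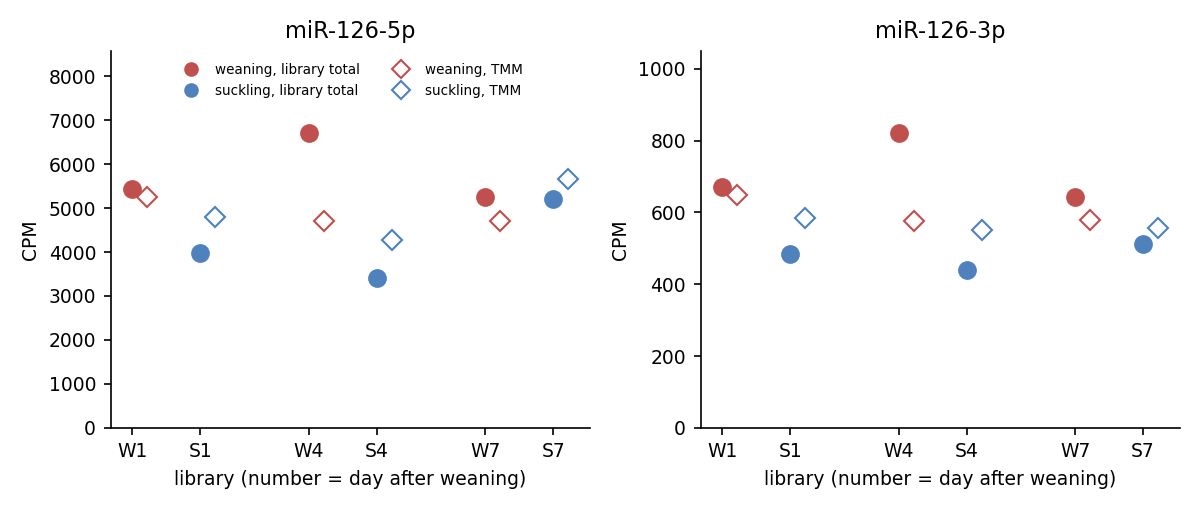
Level of miR-126-5p (left) and miR-126-3p (right) in CPM for each library, with weaning in red and suckling in blue, filled circles scaled to the library total and open diamonds with TMM. The circles of the weaning libraries lie above those of the suckling libraries, with W4 at 6699 CPM and S4 at 3411 CPM for the 5p arm, whereas the diamonds of the groups overlap.

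The design asks how miRNAs differed between weaned and suckling piglets of the same day. At 1 d after weaning, miR-126-5p was 1.37-fold higher in W1 against S1 (log2 ratio 0.45, 95% interval 0.42 to 0.48, counting error only), and miR-126-3p was 1.39-fold higher (0.47, 0.40 to 0.55). Among the 229 sequences with at least 50 reads in this pair of libraries the median log2 ratio was 0.28, and 71.2% of them had a lower ratio than the 5p arm. At a fold of 2, 6.11% of the sequences were higher and 2.62% lower, and neither arm was among them. TMM scaling put the log2 ratios at 0.13 for the 5p arm and 0.15 for the 3p arm, and 2.18% of the sequences then passed this fold upwards and 3.93% downwards. With 1 library per condition, the ratio of a day has no replicate check and no p-value.

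At 4 d both arms had their highest ratios by library total. They lay furthest above the median of all sequences at 1 d (0.17 for the 5p arm and 0.19 for the 3p arm). The 5p arm was furthest from it at 7 d, where it lay below (-0.20). miR-126-5p was 1.96-fold higher in W4 against S4 (log2 ratio 0.97, 0.95 to 1.00), and miR-126-3p was 1.87-fold higher (0.90, 0.83 to 0.98). Neither reached a fold of 2, which 33.6% of 244 sequences did upwards and 2.87% downwards. The median log2 ratio of these sequences was 0.83, so that the 5p arm lay 0.15 above it and the 3p arm 0.08 above it. With TMM scaling the log2 ratios were 0.14 (0.11 to 0.16) for the 5p arm and 0.07 (-0.01 to 0.14) for the 3p arm. miR-126 thus sat close to the middle of all miRNAs on this day. Its place among them cannot change with the scaling, which shifts all log2 ratios of a pair alike.

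At 7 d the arms parted. miR-126-5p had a log2 ratio of 0.01 (-0.02 to 0.03) in W7 against S7, and miR-126-3p one of 0.33 (0.25 to 0.40), a 1.26-fold higher level. The median of 237 sequences was 0.21, with 6.75% past a fold of 2 upwards and 3.8% downwards. The 5p arm lay below this median by 0.20, with 24.5% of sequences lower than it, and the 3p arm lay above it by 0.11. With TMM scaling the 5p arm was at -0.27 (-0.29 to -0.24) and the 3p arm at 0.05 (-0.02 to 0.13), while 3.38% of sequences were higher by that fold and 8.02% lower. By library total the ratio of the 5p arm could not be told from 0, while it was negative under the other scalings, at -0.13 with the clean reads of the study, -0.21 when the 3 most abundant miRNAs are taken out of the total and -0.27 with DESeq2 size factors.

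**Figure D2:**
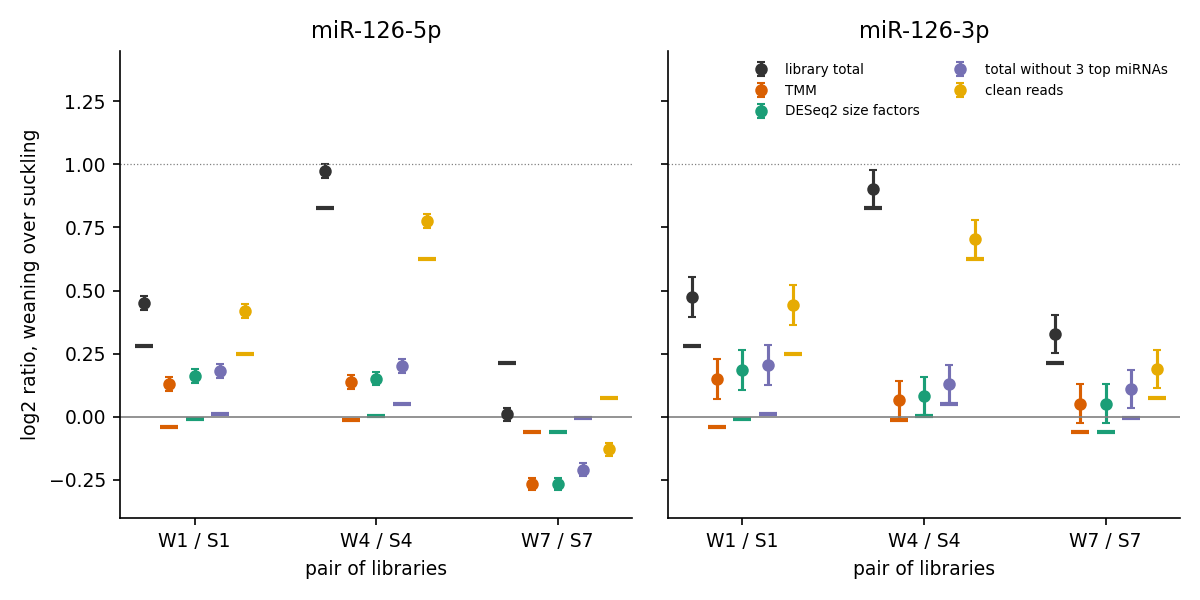
Log2 ratio of a weaning over a suckling library for each day and arm, with 95% intervals of counting error, under 5 ways of scaling the libraries (colours), with short bars at the median of all sequences with at least 50 reads under the same scaling and a dotted line at a fold of 2. Ratios to the library total reach 0.97 for the 5p arm at 4 d and shrink to 0.14 with TMM scaling. The distance to the median bar is the same by construction, since a scaling shifts all log2 ratios of a pair alike.

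Over the 3 days together, neither arm differed between weaning and suckling libraries beyond the spread between libraries. miR-126-5p had 4886 ± 313 TMM-scaled CPM in weaning libraries and 4912 ± 698 in suckling libraries (SD, n = 3 each), which is -0.01 on the log2 scale (standard error 0.13, adjusted p = 0.996 by the quasi-likelihood test of edgeR). miR-126-3p had 601 ± 41.1 in weaning libraries and 564 ± 17.9 in suckling libraries (SD, n = 3 each), which is 0.09 on the log2 scale (standard error 0.10, adjusted p = 0.753 by the same edgeR fit). edgeR called 0 of 290 sequences (0% in either direction), though before adjustment 18 were higher and 26 lower with p under 0.05. By DESeq2, 3 of 228 were called higher and 11 lower, neither arm among them. A p that misses the threshold does not show that the levels were equal.

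Scaled to the library total alone, the edgeR fit gave a log2 fold change of 0.46 for the 5p arm (standard error 0.20, adjusted p = 0.123) and 0.57 for the 3p arm (standard error 0.17, adjusted p = 0.0795). It called 0.345% of the 290 sequences higher and 0% lower. The median log2 fold change of all 290 was then 0.48 and lay between the arms. Under TMM scaling that median was -0.01.

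Each weaning library was also set against the 3 suckling libraries, on the assumption that a lone library varies like these. For W1 the log2 fold change was 0.12 for the 5p arm (standard error 0.19, adjusted p = 0.861 from edgeR) and 0.23 for the 3p arm (standard error 0.13, adjusted p = 0.630 from edgeR), with 0% of 290 sequences called. For W4 it was -0.04 (standard error 0.19, adjusted p = 0.923 from edgeR) for the 5p arm and 0.06 (standard error 0.13, adjusted p = 0.867 from edgeR) for the 3p arm, with 2.07% called lower and 0% higher. For W7 it was 0.02 (standard error 0.19, adjusted p = 0.985 from edgeR) for the 5p arm and 0.12 (standard error 0.13, adjusted p = 0.698 from edgeR) for the 3p arm, with 0.345% called higher and 1.38% lower. With library totals in place of TMM, W4 passed the threshold for both arms, at 0.67 (adjusted p = 0.0419 from edgeR) for the 5p arm and 0.78 (adjusted p = 0.0231 from edgeR) for the 3p arm. In that fit 50.7% of the 290 sequences were called higher and 1.72% lower, so the larger part of all miRNAs passed with them. The p-values of these fits rest on the spread of 3 suckling libraries of different ages.

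The spread of the arms over the 6 libraries was narrow. On the log2 scale of TMM-scaled CPM the SD was 0.14 for the 5p arm and 0.08 for the 3p arm, against a median SD of 0.24 over 207 known miRNAs with at least 100 reads. Of these miRNAs, 78.3% varied more than the 5p arm and 94.2% varied more than the 3p arm. The list reaches down to miRNAs with 100 reads in all, where counting error adds more to the SD than for these arms. Over the 6 libraries the 3p arm, which had fewer reads than the 5p arm, was the steadier. This came from the suckling libraries, where the coefficient of variation was 3.2% for the 3p arm and 14.2% for the 5p arm. In weaning libraries it was 6.8% for the 3p arm and 6.4% for the 5p arm.

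Ratios of reads within a library need no scaling. For every 1000 reads of miR-192, an abundant miRNA of intestinal epithelium, there were 18.0 reads of miR-126-5p in W1, 43.3 in W4 and 25.3 in W7, against 11.3 in S1, 10.2 in S4 and 15.1 in S7. All weaning libraries were above all suckling libraries, and miR-192 itself took 15.5% to 30.3% of counts in weaning libraries and 33.4% to 35.3% in suckling libraries. Such a ratio moves with miR-192 as much as with miR-126-5p. By library total, 44.5% of the 290 sequences tested were higher in all weaning libraries. Since miR-192 was lower in all of them, each of those sequences separates the groups against miR-192 as well. The full number that does so was not counted, and the separation is not particular to miR-126-5p. For every 1000 reads of miR-143-3p, abundant in smooth muscle and stroma, there were 27.2 reads of miR-126-5p in W1, 20.9 in W4 and 16.0 in W7, against 24.1 in S1, 16.8 in S4 and 33.1 in S7. These groups overlapped, and S7 was the highest.

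Markers of other cells in a jejunal section were summed in each library. Over the 3 days edgeR called 0 of the members of any of these lists, and 0 of all 290 sequences. An unadjusted edgeR p under 0.05 was held by 5 of 6 epithelial, 2 of 6 leukocyte, 3 of 3 red cell and 1 of 4 neuronal markers. It was held by 0 of 7 markers of smooth muscle and stroma and 0 of 4 of fibroblasts. Of all 290 sequences, 18 were higher and 26 lower at that p. The 6 epithelial markers (miR-192, miR-215, miR-429 and forms of miR-194) summed to 225500 to 478300 CPM in weaning libraries and 542600 to 579100 CPM in suckling libraries, and none was at 0. These sums are mostly miR-192 and miR-215, and miR-429 had log2 ratios of 0.03 at 1 d, 0.25 at 4 d and 0.32 at 7 d by library total. With TMM scaling miR-429 had log2 ratios of -0.296 at 1 d, -0.585 at 4 d and 0.0395 at 7 d. The median log2 ratio of the list was then -0.61 at 1 d, -2.03 at 4 d and -1.18 at 7 d. The 6 leukocyte markers summed to 3483 to 7291 CPM in weaning libraries and 2620 to 4595 CPM in suckling libraries, and their TMM-scaled medians were 0.14, 0.67 and 0.22 over the days. These groups overlapped. The 7 markers of smooth muscle and stroma summed to 202100 to 330700 CPM in weaning libraries and 159500 to 205300 CPM in suckling libraries, nearly all from miR-143-3p, with TMM-scaled medians of -0.05, -0.12 and 0.44. The 3 markers of red blood cells, which share the vessels with endothelium, summed to 455 to 622 CPM in weaning libraries and 451 to 604 CPM in suckling libraries, with TMM-scaled medians of -0.37, -0.22 and -0.89. The 4 fibroblast markers summed to 3696 to 5820 CPM in weaning libraries and 2761 to 3180 CPM in suckling libraries, with TMM-scaled medians of 0.14, 0.22 and -0.04. The 4 neuronal markers summed to 65.4 to 121 CPM in weaning libraries and 44.5 to 48.8 CPM in suckling libraries, with TMM-scaled medians of 0.27, 0.44 and 0.54 over the 2 or 3 with enough reads. The part of these other cells in the level of miR-126 was not tested.

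Among 27 miRNAs listed for a role in angiogenesis or in endothelial cells, 26 had a named sequence and miR-503 had none. At 4 d, 16 of the 25 with enough reads passed a fold of 2 upwards in W4 against S4 and 0 passed it downwards (33.6% and 2.87% of all sequences), and the list had a median of 1.16 (log2 ratio) beside 0.83 for all sequences. With TMM scaling 2 of 25 were at least 2-fold higher and 1 lower (4.1% and 9.02% of all sequences), with a median of 0.32 beside -0.01. The 2 were miR-132, which promotes vessel growth, at 1.23 and miR-155-5p, which acts in inflamed endothelium, at 1.06. miR-155-5p is also in the list of leukocyte markers above. The lower one was miR-210, a miRNA induced by low oxygen, at -1.11 with TMM scaling and -0.27 without. It had only 78 reads in W4 and 111 in S4. Both arms of miR-126 were below the median of this list on that day. At 1 d both were above it, and at 7 d the 5p arm was below it and the 3p arm above it. At 1 d the list had a median of 0.22 beside 0.28 for all sequences, and 1 of 25 passed the fold upwards and 0 downwards (6.11% and 2.62% of all). At 7 d its median was 0.17 beside 0.21, again with 1 upwards and 0 downwards (6.75% and 3.8%). TMM scaling gave medians of -0.11 beside -0.04 at 1 d, with 1 upwards and 1 downwards (2.18% and 3.93% of all). At 7 d it gave -0.10 beside -0.06, with 1 upwards and 2 downwards (3.38% and 8.02%). Over the 3 days edgeR called 0 of 26, with 4 at an unadjusted p under 0.05 and a median log2 fold change of 0.02. Of all 290 sequences it called 0, with 18 higher and 26 lower at that unadjusted p, so the list did not stand out. The list was chosen with earlier results of these data known.

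The 5p arm had more reads than the 3p arm in every library. Over all 6 libraries it held 89.4% of 159631 miR-126 reads (95% Wilson interval 89.2% to 89.5%), or 8.43 reads of the 5p arm for each read of the 3p arm. Whether library preparation and counting captured both arms equally well was not tested, so this is a share of reads. The 5p share was 89.0% in W1 (88.6% to 89.4%), 89.1% in W4 (88.8% to 89.4%) and 89.1% in W7 (88.7% to 89.4%), against 89.2% in S1 (88.7% to 89.6%), 88.6% in S4 (88.2% to 89.0%) and 91.0% in S7 (90.7% to 91.4%). The weaning libraries were alike to within their counting intervals. S7 stood above all others, with an interval that overlapped none of theirs, and the other 5 libraries spanned 0.555 percentage points.

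By day, the 5p share differed by -0.15 percentage points in W1 against S1 (interval -0.71 to 0.42), by 0.48 in W4 against S4 (-0.06 to 1.03) and by -1.97 in W7 against S7 (-2.47 to -1.48). Only the interval at 7 d left out 0, and it covers counting error only. In reads, S7 held 10.2 of the 5p arm for each of the 3p arm, and W7 held 8.15. Over the groups the share was 89.05% ± 0.0436 in weaning libraries and 89.6% ± 1.28 in suckling libraries (SD, n = 3 each), a difference of -0.55 points (exact two-sided permutation test over libraries, p = 0.7, smallest possible p = 0.1). Without S7 the difference was 0.17 points (exact permutation test, p = 0.6), so its sign rests on that library. The share does not depend on how the libraries were scaled.

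**Figure D3:**
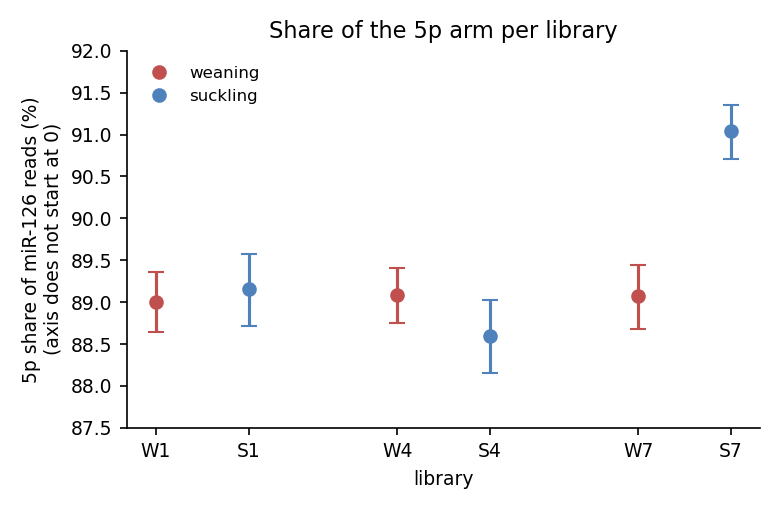
Share of miR-126 reads from the 5p arm in each library, in percent on an axis that does not start at 0, with 95% Wilson intervals, weaning in red and suckling in blue. Libraries W1, W4, W7, S1 and S4 lie between 88.6% and 89.2%, and S7 lies at 91.0%.

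Among 40 precursors with both arms named and at least 50 reads in every library, 22 had more 5p than 3p reads over all libraries and 18 had more 3p reads. The share of miR-126 lay between that of miR-17 at 87.9% and that of let-7d at 90.3%, and 14 precursors had a higher one. Its range over the libraries was 2.44 points, beside a median range of 2.45 points, and 19 precursors had a narrower range. The 8 precursors with more reads than miR-126 had ranges of only 0.0108 to 0.419 points, but all had a 5p share of at most 1.36% or at least 97.9%. All others had fewer reads than miR-126, with the counting error that brings. The 5p share was lower in W7 than in S7 for 25 of the 40 precursors and higher for 15, and 7 precursors had their highest 5p share in S7. At 7 d, 12 precursors, miR-126 included, had a difference at least as large as its own in either direction.

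**Figure D4:**
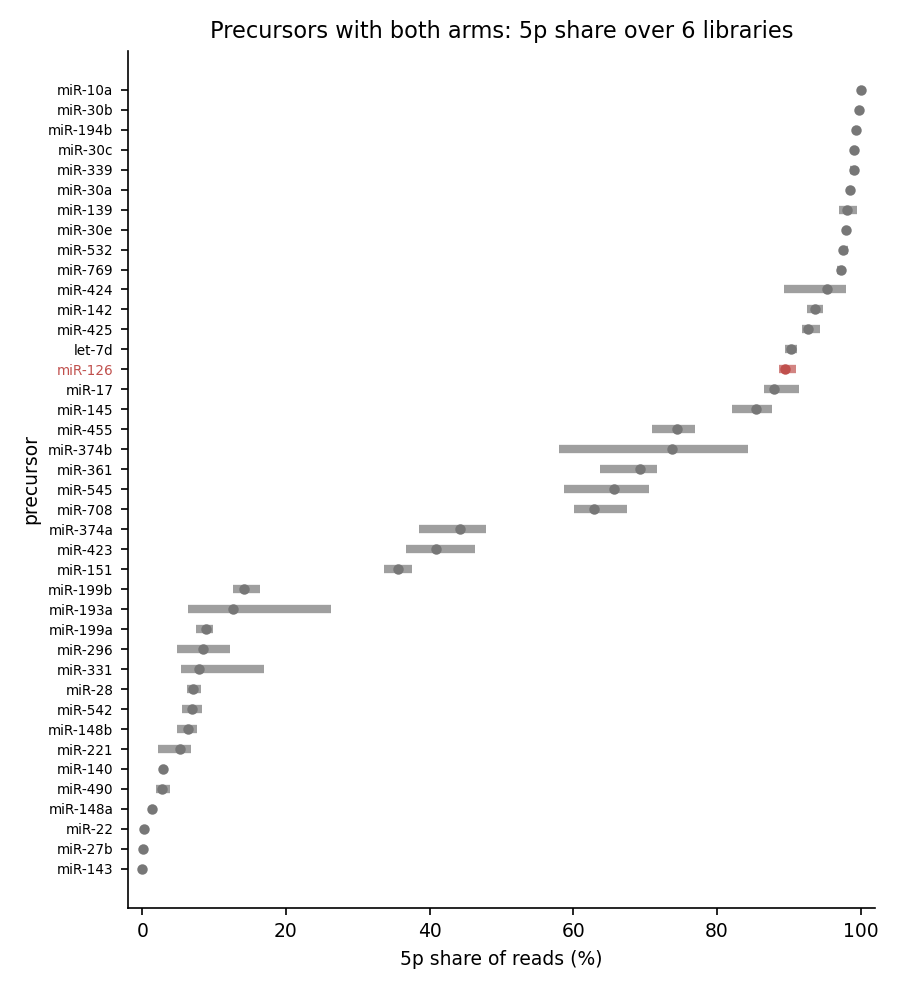
Share of reads from the 5p arm for 40 precursors, ordered by their share over all reads (dots), with bars from the lowest to the highest of the 6 libraries. miR-126 is in red at 89.4%, with a bar from 88.6% to 91.0%.

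The miRNAs with a pattern over the 6 libraries most like each arm were found by the root mean square difference of log2 TMM-scaled CPM, each miRNA set to its own mean, among 206 known miRNAs with at least 100 reads. For miR-126-5p these were miR-23b at 0.07, miR-365 at 0.09, miR-23a at 0.10, miR-342 at 0.11 and let-7i at 0.12, beside a median of 0.25. Over the 6 libraries miR-365 had only 681 reads and miR-342 had 1563, so counting error weighs more on their places. Like the 5p arm, miR-23b and miR-23a were lowest in S4 and highest in S7. For miR-126-3p the nearest were miR-148a-3p at 0.04, miR-139-5p (1472 reads) at 0.05, miR-148b-3p at 0.07, let-7i at 0.07 and miR-769-5p at 0.08, beside a median of 0.24. The other arm of the same hairpin came in place 10 for the 5p arm and in place 26 for the 3p arm, at 0.13. The arms were 0.21 above and 0.06 below their own means in S7, which was the largest gap between them.

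**Figure D5:**
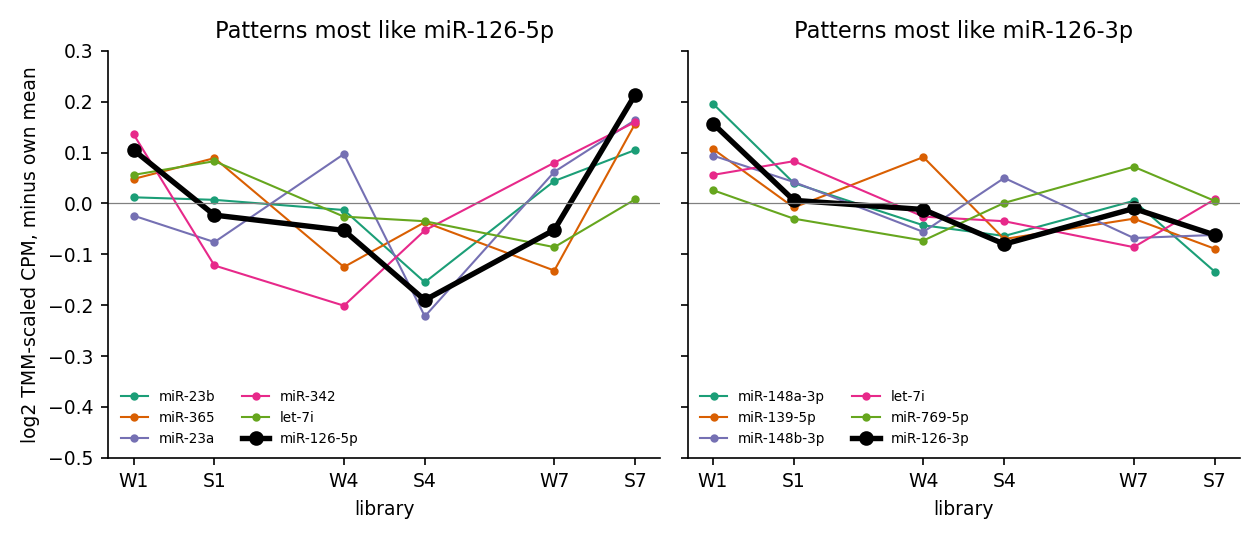
Log2 TMM-scaled CPM minus each miRNA's own mean over the 6 libraries, for miR-126-5p (left, black) and miR-126-3p (right, black) and the 5 known miRNAs nearest to each (colours). The 5p arm is highest in S7 at 0.21 and lowest in S4 at -0.19, and the 3p arm is highest in W1 at 0.16.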

How the data were processed

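The authors pooled total RNA of jejunum from 4 piglets for each library, which was size-selected and sequenced as 6 small RNA libraries. The authors removed adapters, low-quality reads and reads outside the accepted lengths, aligned the rest with Bowtie (the submitters' processing notes give version 0.12.2) to a draft genome of the pig, and compared them with miRBase. The authors deposited unscaled counts of reads, with a row for each mature miRNA or candidate sequence. The step from alignments to counts is not given in the sources used.

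The tables hold sequences without names. A known miRNA's name was given to a sequence whose 6 counts matched a row of the study's table of known miRNAs and summed to 20 reads or more, and the species prefix and locus number were dropped. Where a sequence stood on several rows, the highest count was used. miR-126-5p and miR-126-3p each stood on 1 row. CPM is the count per 1000000 counts of the library. Ratios between libraries of a day have an exact conditional binomial 95% interval and shares a Wilson 95% interval. Both cover counting error only, and not the spread between pools. They may be too narrow even for counting error, since reads without molecular identifiers are not independent molecules. Groups were compared in edgeR (quasi-likelihood test, version 4.0.16, R 4.3.3, TMM scaling, Benjamini-Hochberg adjustment) for the 290 sequences that reached 10 reads in 3 or more libraries, with a standard error taken from the fold change and the F statistic, and with DESeq2 (version 1.42.0). The fits were tested on simulated data. The duplex of the arms was computed with RNAduplex of ViennaRNA (version 2.7.2). Other steps used Python 3.11.15 and SciPy 1.17.1. The study's own test on FPKM was not repeated, since each condition has 1 library.

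The named miRNAs are both arms of miR-126, the 3 most abundant miRNAs, the 5 miRNAs most like each arm over the libraries, the neighbours in abundance and in 5p share, and examples from the fixed lists. The members, lists and tests were chosen with earlier results of these data known. The alternatives tried were the scalings, the filters on low counts, DESeq2, summed rows, leaving out each library and the day as a block.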

Additional observations from a re-analysis of the deposited data

Results flagged for a closer look

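The difference in the 5p share of miR-126 did not go the same way on each day. It was -0.15 percentage points in W1 against S1, 0.48 points in W4 against S4 and -1.97 points in W7 against S7. With 1 library per condition each direction rests on 1 library, and the difference between days was not tested. Counting intervals held 0 at 1 d and 4 d.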

How the results depend on the processing

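The ratios of each day depended on the scaling. With TMM scaling, DESeq2 size factors, the total less the 3 most abundant miRNAs, and clean reads, in this order, miR-126-5p had log2 ratios of 0.13, 0.16, 0.18 and 0.42 in W1 against S1, 0.14, 0.15, 0.20 and 0.78 in W4 against S4, and -0.27, -0.27, -0.21 and -0.13 in W7 against S7. miR-126-3p had 0.15, 0.18 and 0.20 in W1 against S1 (with clean reads it stayed within its interval), 0.068, 0.081, 0.13 and 0.71 in W4 against S4, and 0.052, 0.052, 0.11 and 0.19 in W7 against S7. Summed rows kept every ratio within its interval. In W4 against the 3 suckling libraries, library totals in place of TMM turned the log2 fold change of the 5p arm to 0.67 and brought that of the 3p arm to 0.78, both past the threshold. The other fits left both arms short of the threshold. Leaving out each library in turn gave -0.10 to 0.11 for the 5p arm and 0.07 to 0.17 for the 3p arm over the 3 days. It gave differences of -1.05 to 0.17 points in the 5p share, with the positive one without S7. As log2 ratio of the arms the difference was -0.09.

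With the day as a replicate block, the log2 fold change over the 3 days was 0.09 for the 3p arm (adjusted p = 0.885 from edgeR) and 0 sequences were called. Deviations of same-day libraries had correlations of 0.151 (day 1), -0.342 (day 4) and 0.149 (day 7), across 187 sequences, and the suckling library most like each was S4 for W1, S7 for W4 and S7 for W7. The correlation was not above 0.1 on every day, so the days were not taken as pairs. No leave-one-out value exists for the ratios of a day, and the spread between pools of 1 condition is not known.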
